A study of Sus scrofa with 6 samples.

Results

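ESR1, ESR2, DMC1 and CYP26B1 are 4 reproductive and hormone genes, of 23 genes that the scanner files of a custom pig array name by symbol. They are read by 5 of its 41910 gene probes, whose names begin with SS_NEG_. The members were chosen by that prefix and by the gene symbol that the scanner files give, with DMC1 read by 2 probes and the other genes by 1 each. Every probe is printed at 5 places, so that the 4 genes are covered by 25 spots on each array. The meaning of the prefix is not stated in the sources used here, and 12 probes of the array carry it.

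The cells were sorted as candidate dendritic cells (DC) from the peripheral blood of control pigs around 2 years old, and each of 3 subsets was hybridised on 2 one-colour Cy3 arrays. Plasmacytoid DC (pDC) were sorted as CD3- CD14- CD4+ cells of intermediate CD172. XCR1+ DC were sorted from cells negative for immunoglobulins, CD4 and CD14 as MHC class II+ CADM1+ cells of low CD172. XCR1- DC came from the same gate as CADM1- cells, with high or intermediate CD172, and the labels name both. RNA of distinct animals was mixed where the amount was low, without a statement of which arrays this concerns, and the design text of the series names 1 pig for the CADM1+ DC although 2 arrays carry that label. In the names of the deposited columns 1 code recurs for replicate 1 of both XCR1+ DC and XCR1- DC and for replicate 2 of pDC. The corresponding codes of the other arrays all differ, and those of replicate 2 of XCR1+ DC and XCR1- DC share digits. What the codes mark is not stated, nor whether any marks a pool, so that arrays with the same or similar codes may share animals. The p-values below therefore measure only the spread between these arrays, which may be partly technical.

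ESR1 and ESR2 encode the oestrogen receptors alpha and beta, nuclear receptors that bind the hormone and then act on their target genes as transcription factors. DMC1 is a meiosis-specific recombinase, which carries out strand exchange between homologous chromosomes in germ cells. CYP26B1 is a cytochrome P450 that degrades retinoic acid and is known in the fetal testis, where it keeps germ cells from entering meiosis. Germ cell recombination is not a function of DC, while oestrogen receptors have been described in cells of the immune system.

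The 5 probes are 60-mers. They are shown because DMC1, the one gene that gave signal, is read by 2 different sequences, and because the ESR1 and ESR2 probes are alike in sequence. In the ESR1 and ESR2 probes, capitals mark the bases that are the same at the same position of the other probe. The DMC1 and CYP26B1 probes are in lower case throughout.
ESR1: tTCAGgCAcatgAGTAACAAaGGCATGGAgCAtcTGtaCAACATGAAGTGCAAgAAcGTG
ESR2: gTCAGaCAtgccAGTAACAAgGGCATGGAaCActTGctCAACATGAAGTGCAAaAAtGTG
DMC1 probe A: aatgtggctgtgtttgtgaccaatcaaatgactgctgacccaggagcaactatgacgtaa
DMC1 probe B: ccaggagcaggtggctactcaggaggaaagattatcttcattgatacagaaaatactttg
CYP26B1: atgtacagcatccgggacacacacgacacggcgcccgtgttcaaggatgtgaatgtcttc

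The ESR1 and ESR2 probes shared 46 of 60 positions (76.7%), with a longest common run of 15 bases. The DMC1 probes, called A (ENSSSCG102 in the files) and B (ENSSSCG103), had a longest common run of 9 bases, and were not placed on a transcript here. The GC content was 45.0% for ESR1, ESR2 and DMC1 probe A, 41.7% for DMC1 probe B and 55.0% for CYP26B1, against a median of 41.7% over all gene probes. No other gene probe of the array held a run of 18 bases of either DMC1 probe or of the CYP26B1 probe on either strand. The files give shortened Ensembl gene numbers, and with these padded to 11 digits the table of gene names gave the same symbol for 3 of the 5 probes (ESR2, DMC1 probe B and CYP26B1). The files list the genome position of every gene spot as unmapped, so no coordinates are given.

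The markers that the files name were checked first. XCR1, the chemokine receptor that names the subset, was well above background on both XCR1+ DC arrays and on no other array. TCF4, the transcription factor of pDC, had its highest levels on both pDC arrays, while CSF1R, CD14 and SIRPA had theirs on both XCR1- DC arrays. CSF1R, the receptor of the macrophage growth factor, had levels of 3.68 and 3.49 there, against -4.48 to -2.95 on the other 4. CD14, the endotoxin co-receptor by which the sort was to remove cells, had levels of 1.90 and 3.26 there, against -2.66 to -0.73. FLT3, the growth factor receptor of DC, was lowest on the XCR1- DC arrays, at -1.50 and -1.76 against 0.64 to 0.91. SIRPA, which encodes CD172, had 0.40 and 0.13 on the XCR1- DC arrays, against -3.21 and -2.35 in pDC and -6.00 and -5.68 in XCR1+ DC. The paper lists CSF1R and SIRPA as higher in cDC2, a type of conventional DC, than in the other DC. It gives both for monocytes as well, so neither decides on the label. CD14 and FLT3 go against the label of DC for that subset, and XCR1- DC is used below only as the name that the labels give it. BATF3, which the paper lists as higher in conventional DC than in pDC, goes the other way. Its levels were 4.23 and 3.68 on the XCR1- DC arrays, against -1.11 and 0.41 on the pDC arrays. For ID2 they were 3.35 and 3.33, against 1.63 and 2.01. BATF3, ID2 and CADM1 had their highest levels on both XCR1+ DC arrays. CLEC9A, a further marker of the XCR1+ subset, was not well above background on either XCR1+ DC array, and was so on pDC replicate 1 alone. No probe carries the symbol of a B, T or NK cell marker of the list, so that these cells were not checked. XCR1+ DC replicate 2 stood apart in its background. The scanner software called 54.3% of the gene probes well above background there, against 59.4% to 64.1% on the other 5 arrays, and its dimmest gene spot with that call had a processed signal of 14.8 units, against 6.90 to 8.60 units elsewhere. The median of its 153 negative control spots was 3.73 units, against 1.60 to 1.95 units on the other 5 arrays.

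ESR1, ESR2 and CYP26B1 were not well above background as probes in any subset, although 1 ESR1 spot was. DMC1 gave signal, and both of its probes were well above background on XCR1+ DC replicate 1 and on no other array, when a probe was counted as detected if the software called the majority of its spots well above background. In all, 2 of 30 pairs of probe and array were detected, both of them DMC1. Of the spots without an outlier flag on any array, 0 of 78 spots over the 6 arrays were called for ESR1, ESR2 and CYP26B1 together, 11 of 24 for DMC1 probe A and 4 of 24 for DMC1 probe B. With flagged spots counted, 1 of 90 was called for the first 3 genes, an ESR1 spot of 103.4 units on XCR1+ DC replicate 1 that the software marked as an outlier. Among the negative control spots, which are designed not to bind sample RNA, 8 of 918 were called.

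**Figure D1:**
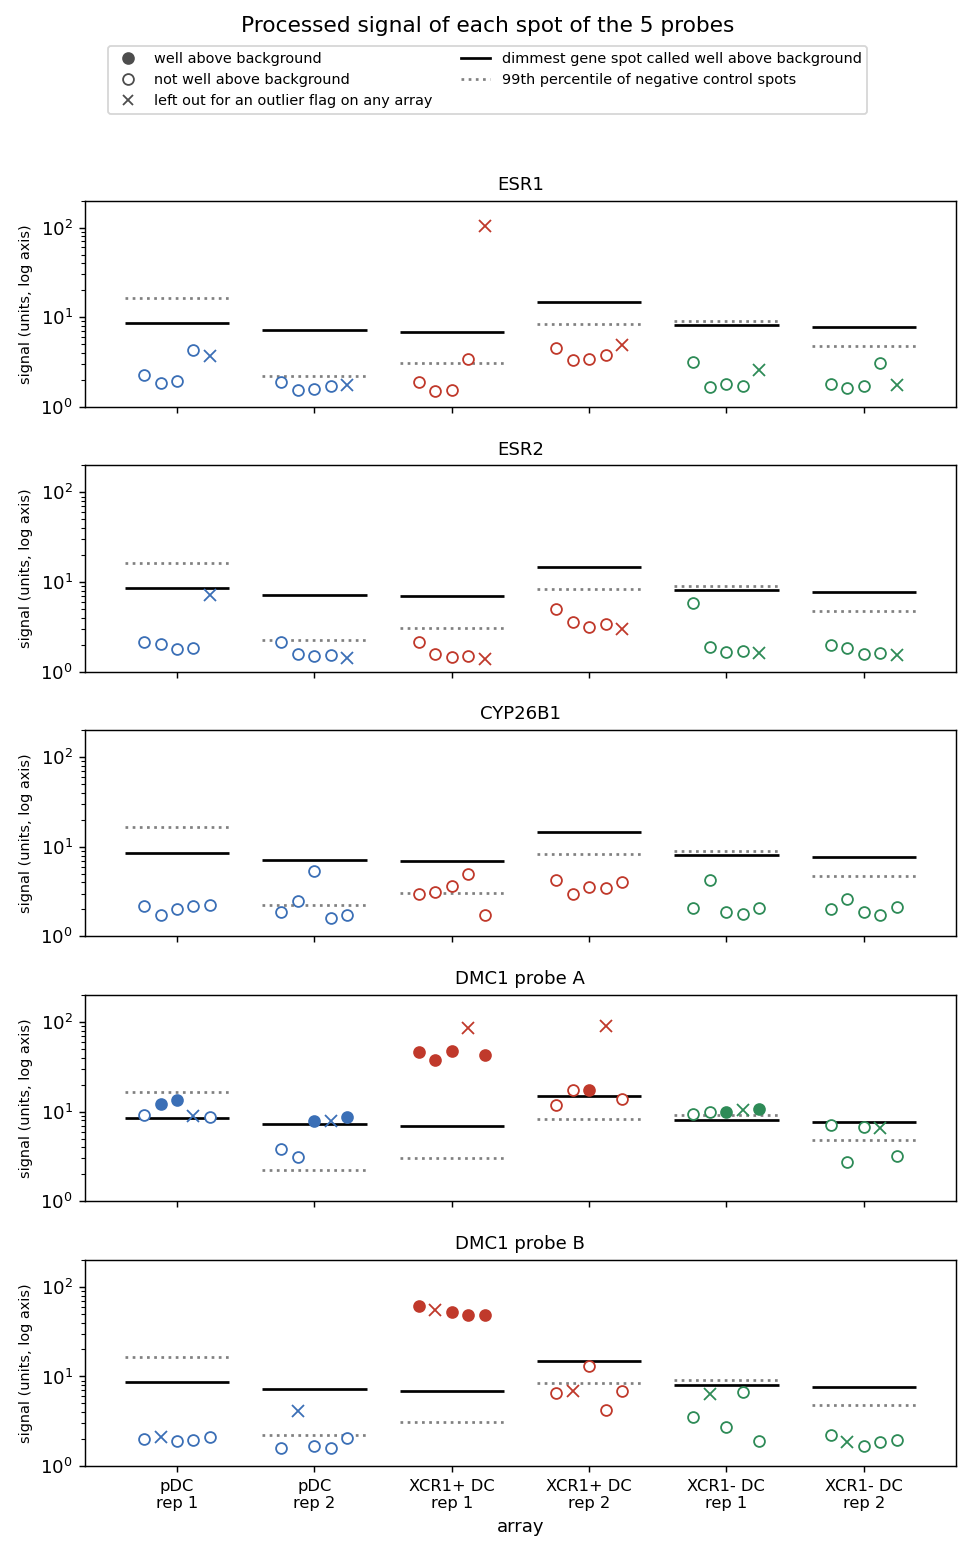
Processed signal in units on a log axis of each of the 5 spots of every probe, by array. Filled circles are spots called well above background, open circles are spots not called, crosses are spots left out for an outlier flag on any array, black lines mark the dimmest gene spot with that call on the array and dotted lines the 99th percentile of 153 negative control spots. The filled spots of DMC1 probe B lie on XCR1+ DC replicate 1 alone, at 48.4 to 60.6 units.

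ESR1 spots lay at 1.49 to 4.48 units over the 6 arrays, and 79.2% of them held the substitute value that the software writes when a spot is not distinguishable from background. Its levels, as log2 of the processed signal minus the 75th percentile of the array, were -6.79 and -7.09 in pDC, -7.33 and -6.16 in XCR1+ DC, and -7.36 and -6.89 in XCR1- DC. All 6 levels were below the lowest level of a detected probe on their array, which was between -5.52 and -4.18. Values at this floor have no order. In this scaling the level of XCR1+ DC replicate 2 lies highest for ESR1, ESR2 and CYP26B1 alike. That array had the highest background, and the part of the background in these values was not tested. In the authors' deposited log2 values XCR1+ DC replicate 2 lies lowest for ESR1 (3.08) and ESR2 (2.58). For CYP26B1 it has 3.66 there, below pDC replicate 2 (3.92).

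A commercial probe of the array has the same 60 bases as the ESR1 probe, and another overlaps it by 57 bases without a mismatch. These probes were looked up after the values were seen, and the files name no gene for them. Neither was well above background on any array. The identical probe had levels between -7.67 and -6.26, so that the same sequence read at 1 other place of each array was also at the floor.

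ESR2 spots lay at 1.44 to 5.84 units, and 95.8% of them held the substitute value. Its levels were -7.11 and -7.09 in pDC, -7.59 and -6.17 in XCR1+ DC, and -7.13 and -7.07 in XCR1- DC. A commercial probe that overlaps the ESR2 probe by 56 bases with 1 mismatch was likewise not well above background on any array.

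CYP26B1 spots lay at 1.60 to 5.37 units, and 66.7% of them held the substitute value. Its levels were -7.02 and -6.61 in pDC, -6.67 and -6.20 in XCR1+ DC, and -7.18 and -6.83 in XCR1- DC. A laxer call of the software, by which a spot is positive and significant against its background, was met by 10 of 30 CYP26B1 spots, by 5 of 24 ESR1 spots and by 1 of 24 ESR2 spots. It was met by 25 of 918 negative control spots. By that call CYP26B1 was detected on XCR1+ DC replicate 1 alone, and ESR1 and ESR2 on no array. With the 99th percentile of the negative control spots as the limit, CYP26B1 was again detected on XCR1+ DC replicate 1 alone. With that limit in the authors' deposited values it was detected on pDC replicate 2 alone, so the array changed subset with the rule.

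DMC1 probe A gave the strongest signal on XCR1+ DC replicate 1, where its 4 unflagged spots had processed signals of 46.6, 37.4, 47.7 and 43.4 units. On XCR1+ DC replicate 2 the same 4 spots had 11.7, 17.5, 17.4 and 13.9 units, and 1 of them was called well above background. They lay at 8.79 to 13.5 units on pDC replicate 1 and at 3.15 to 8.74 units on pDC replicate 2, with 2 of 4 spots called on each. On the XCR1- DC arrays they lay at 9.30 to 10.69 units on replicate 1, with 2 of 4 called, and at 2.72 to 7.14 units on replicate 2, with none called. The probe therefore had some spots above background in every subset, and its brightest array was an XCR1+ DC array.

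The levels of DMC1 probe A were -4.64 and -5.41 in pDC, -2.86 and -4.16 in XCR1+ DC, and -5.05 and -5.69 in XCR1- DC. Both XCR1+ DC arrays lay above the other 4 arrays, and the XCR1+ DC arrays differed from each other by 1.31 on the log2 scale. The group means were -3.51 ± 0.92 (SD, n = 2) in XCR1+ DC, -5.02 ± 0.54 (SD, n = 2) in pDC and -5.37 ± 0.45 (SD, n = 2) in XCR1- DC. In a bulk sample, fewer cells with a transcript and less of it per cell cannot be told apart.

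DMC1 probe B was more sharply split between arrays. Its 4 unflagged spots had 60.6, 52.9, 48.4 and 48.9 units on XCR1+ DC replicate 1, where all 4 were called. On XCR1+ DC replicate 2 they had 6.57, 13.0, 4.26 and 6.95 units, and none was called on an array where the dimmest called gene spot stood at 14.8 units. They lay at 1.59 to 2.09 units on both pDC arrays, where every one held the substitute value, and at 1.69 to 6.76 units on both XCR1- DC arrays. By the laxer call, all 8 spots on the XCR1+ DC arrays were positive and significant, against 4 of 8 in XCR1- DC and 0 of 8 in pDC.

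The levels of DMC1 probe B were -7.08 and -7.05 in pDC, -2.59 and -5.24 in XCR1+ DC, and -6.62 and -6.94 in XCR1- DC. XCR1+ DC replicate 1 was at least 3.00-fold higher than replicate 2, which was below the lowest level of a detected probe on its array (-4.18). The group means were -3.91 ± 1.87 (SD, n = 2) in XCR1+ DC, -7.06 ± 0.017 (SD, n = 2) in pDC and -6.78 ± 0.22 (SD, n = 2) in XCR1- DC.

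XCR1+ DC replicate 1 was thus the highest array for both DMC1 probes. For probe A the pDC and XCR1- DC arrays overlapped. For probe B all arrays other than XCR1+ DC replicate 1 were below the lowest level of a detected probe, so that they have no order. Over all 41901 probes left after the flags, 14.4% had both XCR1+ DC arrays above the other 4 arrays, and 2 of the 5 member probes did, both of DMC1, where for probe B this ranks values below the floor. ESR1 did so too with flagged spots kept, and CYP26B1 with the median over spots in place of the mean, by gaps of 0.49 and 0.18 on the log2 scale. The DMC1 probes kept that separation with quantile normalisation, in the deposited values and with a background correction by normexp, an alternative that models the background of each spot. With normexp and an offset of 50 the gap between the lowest XCR1+ DC array and the highest other array was 0.12 for probe A and 0.10 for probe B on the log2 scale, against 0.48 and 1.39 in the main scaling.

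Slide and scan day were recorded in the files. XCR1+ DC replicate 1 shared a slide and a scan day with pDC replicate 2, on which neither DMC1 probe was detected. Set against the lowest level of a detected probe there, -4.99, it was at least 4.37-fold higher for DMC1 probe A and at least 5.26-fold higher for probe B. XCR1- DC replicate 1 was scanned on the same day on another slide and did not detect either probe. Against the lowest level of a detected probe there, XCR1+ DC replicate 1 was at least 6.76-fold higher for probe B. For probe A the own level there, -5.05, lay above that limit (-5.35), and against the own level the fold was 4.57. Against pDC replicate 1, also scanned that day, it was at least 5.18-fold higher for probe B. For probe A the fold was 3.45 against the own level (-4.64), which again lay above the limit (-4.96). XCR1+ DC replicate 2 was alone on its slide and scan day.

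The comparison between subsets asked whether the DMC1 difference is larger than the spread between arrays. The test was limma's moderated test over all 6 arrays with Benjamini-Hochberg adjustment, for probes detected on each array of some subset. None of the 5 member probes met that condition, so 0 of 5 were tested. Among the 26371 probes that met it, 28.8% differed between pDC and XCR1+ DC, 32.7% between pDC and XCR1- DC, and 16.1% between XCR1+ DC and XCR1- DC at an adjusted p under 0.05.

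With all 41901 probes tested, 0 of the 15 differences of the member probes passed the threshold, and 4 had an unadjusted p under 0.05, all of them of DMC1 in XCR1+ DC against another subset. In that fit 10.4%, 13.9% and 5.57% of all probes passed in the same 3 comparisons. DMC1 probe B was higher in XCR1+ DC than in pDC by a log2 difference of 3.15 (limma adjusted p = 0.0716), and the difference from XCR1- DC was 2.87 (limma adjusted p = 0.128). Both of these are measured against values at the floor, and XCR1+ DC replicate 2 was itself below it, so that they are no measured size. DMC1 probe A was higher in XCR1+ DC than in pDC by 1.51 (limma adjusted p = 0.155) and than in XCR1- DC by 1.86 (limma adjusted p = 0.136). With the recurring column code as a block, chosen after the data were seen, none of these differences passed either, and the lowest was that of probe B from pDC (limma adjusted p = 0.0684). This block put all arrays without the code into a single level. For ESR1, ESR2 and CYP26B1 the lowest limma adjusted p was 0.469.

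Since the dimmer subsets had at most a bound, the difference can be given as a least fold. The mean of both XCR1+ DC arrays was set against the dimmer subset's mean of, on each array, the higher of the probe's own level and the lowest level of a detected probe. By this measure DMC1 probe A was 2.47-fold higher in XCR1+ DC than in pDC. That mean takes in XCR1+ DC replicate 2, on which the probe was not detected, so the value is no strict limit. With XCR1+ DC replicate 1 alone it was at least 3.88-fold higher. Against XCR1- DC it was 2.79-fold higher over both arrays, likewise no strict limit, and at least 4.38-fold higher with replicate 1 alone. XCR1+ DC replicate 2, on which the probe was not detected, lay above the same limits by 0.65 on the log2 scale for pDC and by 0.83 for XCR1- DC. Of the 2 XCR1+ DC arrays, 1 measured either probe well above background. For DMC1 probe B no bound is given over both arrays, since replicate 2 was itself below the lowest level of a detected probe, and below the limits of pDC and XCR1- DC (differences of -0.26 and -0.10 on the log2 scale). With replicate 1 alone, probe B was at least 5.22-fold higher than in pDC. The same measure gave at least 5.85-fold against XCR1- DC.

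Each XCR1+ DC array moved the differences, and XCR1+ DC replicate 2 and a flagged spot decide the outcome of the test. Without XCR1+ DC replicate 2, and with all probes tested, DMC1 probe B was higher than in pDC by 4.47 (limma adjusted p = 0.00481) and than in XCR1- DC by 4.19 (limma adjusted p = 0.00831), both measured against values at the floor. For probe A the differences were 2.17 (limma adjusted p = 0.0718) and 2.51 (limma adjusted p = 0.0682). This fit was chosen after the data were seen, and 6.93%, 14.2% and 3.77% of all probes passed in it. With a lone XCR1+ DC array, these p-values assume that it varies like the arrays of the other subsets. With the filter on dim probes in place and that array left out, both probes entered through the one bright array, so that their passing there is no support (14.2%, 24.7% and 7.74% of the probes tested passed). Without XCR1+ DC replicate 1, no member probe was detected on any array or tested with the filter. With all probes tested, likewise chosen after the data were seen, the differences then shrank to 1.83 from pDC (limma adjusted p = 0.0513) and 1.54 from XCR1- DC (limma adjusted p = 0.0991) for probe B. For probe A they were 0.86 (limma adjusted p = 0.320) and 1.21 (limma adjusted p = 0.213), where ESR1, ESR2 and CYP26B1, at the floor on every array, gave 0.62 to 0.96. In that fit 7.45%, 14.2% and 4.89% of all probes passed. No fold is given, since neither side was detected.

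**Figure D2:**
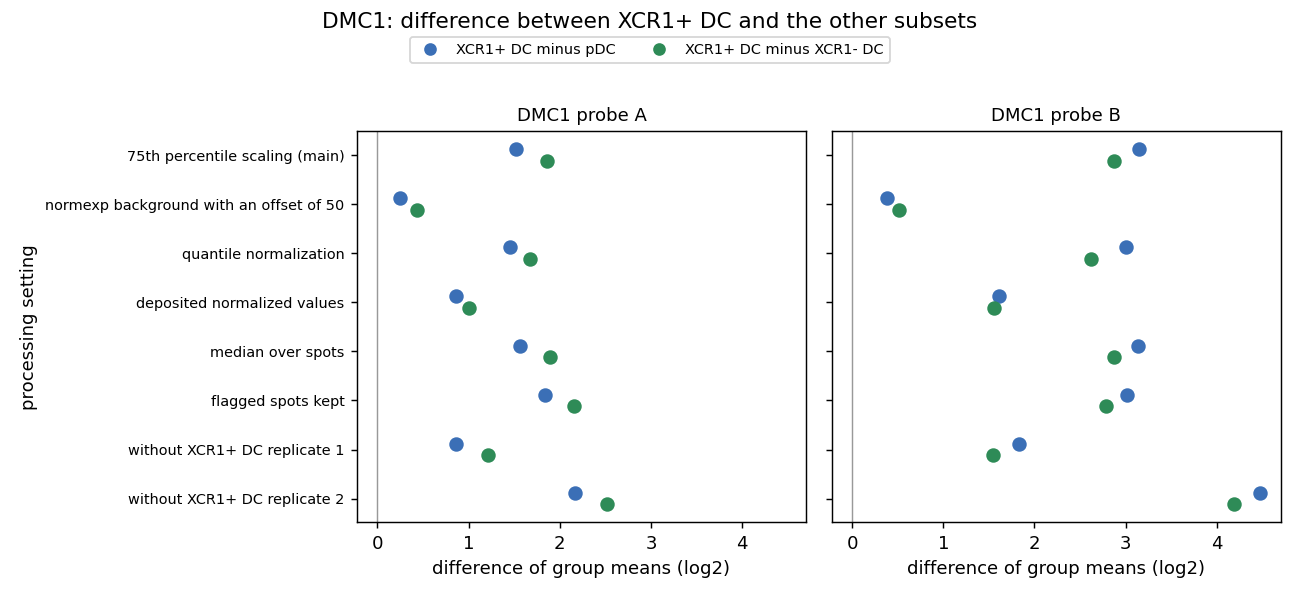
Difference of the group means on the log2 scale, XCR1+ DC minus pDC (blue) and XCR1+ DC minus XCR1- DC (green), for both DMC1 probes under 8 processing settings, given per row, from measured levels that include values at the floor. All points lie above 0, from 0.25 with the normexp correction to 4.47 without XCR1+ DC replicate 2.

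The remaining spot of DMC1 probe A had 86.3 units on XCR1+ DC replicate 1 and 89.5 units on XCR1+ DC replicate 2, and the software marked it as an outlier on both arrays. On the pDC and XCR1- DC arrays it lay at 6.59 to 10.4 units, among the other 4 spots. With flagged spots kept, DMC1 probe A was well above background on 4 arrays (both pDC arrays and replicate 1 of each of the others). It then entered the test, and was higher in XCR1+ DC than in pDC by 1.84 (limma adjusted p = 0.0228) and than in XCR1- DC by 2.16 (limma adjusted p = 0.0206), in a fit where 28.8%, 32.7% and 16.0% of the probes tested passed. With the spot left out on its own arrays only, the differences were 1.49 and 1.80 and did not pass (limma adjusted p = 0.0672 and 0.0570). DMC1 probe B was not well above background on more arrays under either choice.

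**Figure D3:**
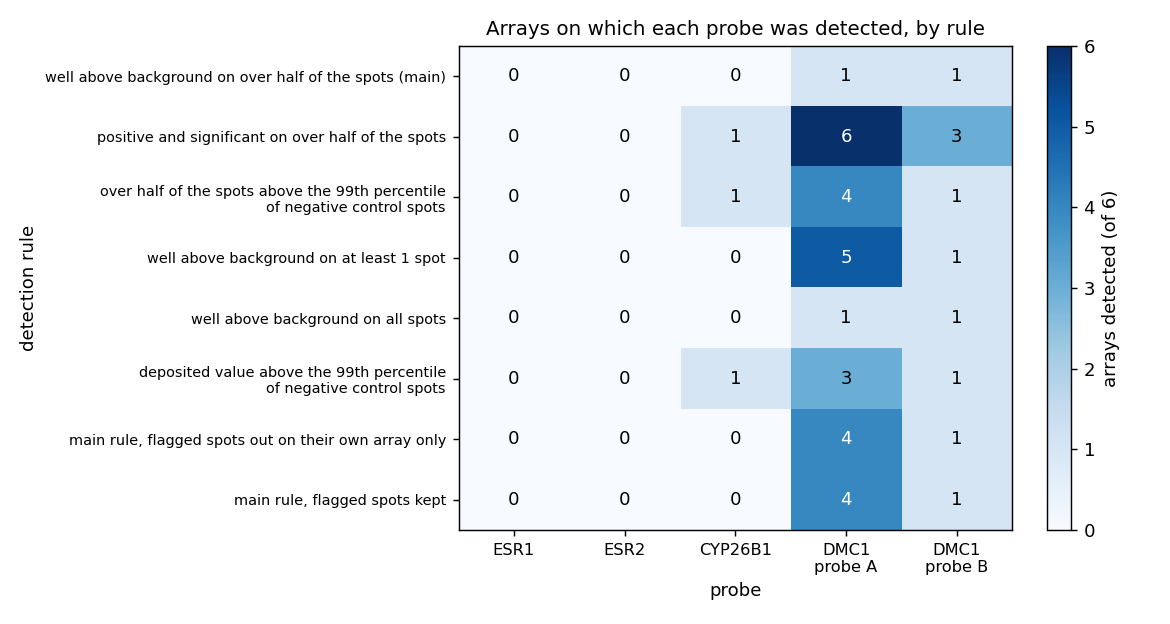
Number of arrays, of 6, on which each of the 5 probes was detected under 8 detection rules, given per row, with the count printed in each cell. ESR1 and ESR2 stay at 0 under every rule shown, CYP26B1 reaches 1 array under 3 rules, and DMC1 probe A ranges from 1 to 6 arrays.

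How often DMC1 was detected depended on the rule. By the laxer call, DMC1 probe A was positive on all 6 arrays and DMC1 probe B on both XCR1+ DC arrays and XCR1- DC replicate 1. With the 99th percentile of the negative control spots of the same array as the limit, probe A was detected on 4 arrays (pDC replicate 2, both XCR1+ DC arrays and XCR1- DC replicate 1) and probe B on XCR1+ DC replicate 1 alone. That limit ranged from 2.23 to 16.5 units between arrays. XCR1+ DC replicate 1 was the one array on which both DMC1 probes were detected under all 8 rules.

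In the values that the authors normalised and deposited, on a log2 scale, DMC1 probe A averaged 5.37 ± 0.68 (SD, n = 2) in XCR1+ DC, 4.51 ± 0.22 (SD, n = 2) in pDC and 4.37 ± 0.23 (SD, n = 2) in XCR1- DC. DMC1 probe B averaged 5.08 ± 1.21 (SD, n = 2), 3.47 ± 0.20 (SD, n = 2) and 3.53 ± 0.35 (SD, n = 2) in the same order. The direction of XCR1+ DC over the other subsets was as in the main scaling, and the difference from pDC for probe B was 1.61 in place of 3.15 on the log2 scale.

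The other 7 probes with the same prefix show that it does not mark absence of signal on these arrays. FOXO3, a transcription factor of the forkhead family, is read by 2 of them, and both were well above background on all 6 arrays. NOBOX, a homeobox factor of oocytes, was well above background on 5 of 6 arrays, with levels of -4.34 on XCR1+ DC replicate 2, the array without the call, and -4.25 to -3.82 on the others. STRA8, which germ cells express on entry into meiosis, and MAEL, of the germ cell piRNA pathway, are named after their values were seen. STRA8 was well above background on pDC replicate 2 alone. SPO11, which makes the DNA breaks that DMC1 helps to repair, and both probes of MAEL were not well above background on any array. Of the 20 genes listed for meiotic recombination the files name 1, SPO11. They name 0 of 18 listed partners and targets of the oestrogen receptors and 0 of 18 listed genes of retinoic acid metabolism and signalling, so that these pathways were not analysed here.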

How the data were processed

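Blood DC RNA was amplified, labelled with Cy3 and hybridised on custom Agilent pig arrays, and the authors extracted the scans with Feature Extraction 10.7.3.1. The deposited scanner tables hold intensities on a linear scale, 0 or 1 flags coded as other values, and a p-value of each spot against background, which was not used. The processed signal is background-subtracted, with a substitute value for spots at background. The authors also deposited a table of normalised log2 values, whose method is not given in the sources used here beyond limma in the submitters' processing notes. Its 6 columns of these arrays were an alternative, and 5 columns of other samples were not used.

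Here, 19 gene spots that the software had marked as outliers on at least 1 array were dropped from all arrays, log2 of the processed signal was taken minus the 75th percentile of each array, and spots of a probe were averaged. limma 3.58.1 in R 4.3.3 was fitted over 6 arrays with 1 coefficient per subset and no block (3 residual degrees of freedom). Precision is limited by the number of arrays. The script was checked on simulated data. Python 3.11.15 was used for the rest. No gene spot was saturated.

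All probes of the 4 genes were named, the other probes with the prefix where each array of some subset detected them (any others are marked in the text), the genes of the lists that the files name, and the probes most like a member only for members well above background on at least 2 arrays, which none was. The members and lists were chosen with earlier results of these data known. Alternatives covered background correction, normalisation, filter, prior, blocks, detection rule and leaving out each array.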

Additional observations from a re-analysis of the deposited data

Results flagged for a closer look

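Spots that were left out of the comparisons, because the software marked them as outliers on at least 1 array, held signal above every negative control spot of their array in 4 cases, all on XCR1+ DC arrays. The fifth spot of the ESR1 probe had 103.4 units on XCR1+ DC replicate 1 and was called well above background there, where the brightest negative control spot had 9.40 units. Its median pixel was 132 units and its mean pixel 136.9 units, with a pixel SD of 47.3 units. The pixel SD of the other 4 ESR1 spots on that array was 8.83 to 10.6 units. The other 4 ESR1 spots on that array had 1.49 to 3.44 units, and the same spot had 1.74 to 4.92 units on the other 5 arrays. The commercial probe with the same 60 bases had a level of -7.67 on XCR1+ DC replicate 1, at the floor. The fourth spot of DMC1 probe A had 86.3 units on XCR1+ DC replicate 1 and 89.5 units on XCR1+ DC replicate 2, where the brightest negative control spots had 9.40 and 35.8 units. The second spot of DMC1 probe B had 54.9 units on XCR1+ DC replicate 1 and lay among the other 4 spots there. It was left out for a flag on pDC replicate 2, where it had 4.14 units. Why single spots were bright was not tested.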

How the results depend on the processing

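ESR1 and ESR2 were detected on no array under any of the 8 detection rules. The 2 of 30 pairs of probe and array detected in the main setting became 10 by the laxer call of the software, 6 with the 99th percentile of negative control spots as limit, 6 with at least 1 spot called, 5 in the deposited values with the same limit, and 5 with flagged spots kept or left out on their own array only, the last pair of choices made after seeing the data. With all spots called there were 2. The count of member differences past the threshold was 0 in the main setting, ranged from 0 to 4 when leaving out each array (4 without XCR1+ DC replicate 2, where both DMC1 probes entered through the one bright array) and was 2 with flagged spots kept. Without that array and without the filter it was 2, both of DMC1 probe B, and without XCR1+ DC replicate 1 and without the filter it was 0. It was 0 without the filter, where all 5 probes were tested, with that and the recurring column code as a block, and with flagged spots left out on their own array only, where DMC1 probe A was tested. In the other alternatives no member probe was detected widely enough to be tested. No difference of DMC1 between XCR1+ DC and another subset changed sign. With normexp the differences of DMC1 between XCR1+ DC and another subset shrank to between 0.25 and 0.51 on the log2 scale.

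Over all probes, the counts past the threshold were 7597, 8615 and 4239 for pDC against XCR1+ DC, pDC against XCR1- DC and XCR1+ DC against XCR1- DC. Without the filter on dim probes they were 4371, 5830 and 2335. With scan day as a block, added after seeing the data and with 1 residual degree of freedom, they were 1979, 2856 and 592. Without the filter they were 3499, 4973 and 1767 with the recurring column code as a block, 2902, 5967 and 1580 without XCR1+ DC replicate 2, and 3123, 5967 and 2049 without XCR1+ DC replicate 1, all added after seeing the data. With the filter the code as a block gave 6915, 8086 and 3823. With the arrays of both subsets alone, XCR1+ DC against XCR1- DC gave 6481. Leaving out each array gave 3971 to 8932, 4098 to 10407 and 1332 to 5863.

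The labels do not say that replicate numbers pair the arrays. The deviations of same-numbered arrays correlated at 0.043 for pDC with XCR1+ DC, 0.089 for pDC with XCR1- DC, which share a slide for replicate 1, and 0.27 for XCR1+ DC with XCR1- DC, which share the column code for replicate 1. With the replicate number as a block the counts were 7541, 8491 and 4095, and no member probe was tested. A fixed slide block left no residual degrees of freedom. The background of XCR1+ DC replicate 2 limits what it can show of dim probes, and its part in the DMC1 difference between the XCR1+ DC arrays was not tested.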
